A study of Mus musculus with 8 samples.

Results

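The genes described here carry glucose through glycolysis and carry the cellular response to low oxygen. Of 40 listed genes, 35 had a probe set annotated with exactly 1 gene symbol, among 22180 genes with such a probe set on the array. A gene with several was represented by its brightest one, averaged over the 8 arrays. Ero1l is carried under its current symbol, Ero1a. Gpi1 and Eno1 had no named probe set, and those of Aldoa, Bnip3l and Ankrd37 are shared with other genes, so these 5 genes have no value here. The 35 measured genes comprise 21 of glycolysis and 14 of the hypoxia response, and all 35 lay above the intensity filter, a mean log2 value of 5.56.

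The arrays hold RNA of CD4 single-positive (CD4SP) thymocytes, T cells of the thymus that have kept CD4 and lost CD8, sorted from mice of C57BL/6 background. The 4 arrays of wild-type cells (WT) were set against 4 arrays of cells labelled Pggt1b_KO (KO), in which the gene for the catalytic subunit of GGTase-I, the enzyme of protein geranylgeranylation, was targeted. The labels used here name no allele, Cre driver, age or sex, and do not say whether replicates are separate mice, so the spread behind each p-value may be partly technical. The series asks how geranylgeranylation, the attachment of a mevalonate-derived lipid to proteins, bears on the exit of thymocytes from the thymus.

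Glycolysis splits glucose to pyruvate in the cytosol, and lactate dehydrogenase turns pyruvate into lactate, which monocarboxylate transporters move across the membrane. In T cells this flux is known to be low at rest and to rise when cells grow and divide. Hypoxia-inducible factor (HIF) is a pair of an alpha subunit, such as that encoded by Hif1a, and the beta subunit ARNT. Prolyl hydroxylases of the EGLN family mark the alpha subunit when oxygen is present, the VHL protein then directs its degradation, and HIF induces many glycolytic genes as well as Egln3 and other genes of its own control.

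The 10 measured T cell and CD4-lineage markers had mean log2 values of 8.01 to 12.5, and Cd4 differed by -0.01 between the genotypes. Gata3 alone of this list was called, lower in KO, with a difference of -0.26 log2 (limma, adjusted p = 0.0144) and no overlap. Every difference of the list lay below 0, with a median of -0.04 log2 against -0.03 for all genes tested. Of the markers of other cells, 4 of 5 for B cells, 8 of 10 for myeloid and dendritic cells and 3 of 3 for erythroid cells lay below the intensity filter. Of 8 measured markers of double-positive and CD8 cells 0 lay below that filter. Among them Cd8b1 had means of 10.59 log2 in WT and 10.46 in KO, and Cd8a 9.48 and 8.75. Of 8 measured markers of epithelium and stroma 3 lay below it, and Pecam1, which blood cells also carry, was called higher by 0.24 log2. Array-to-array correlations over the genes tested, which are not independent of each other, were 0.99 to 0.995 within a genotype and 0.985 to 0.99 between genotypes. Pggt1b itself fell by 0.59 ± 0.072 (SE) log2 in KO (limma, Benjamini-Hochberg adjusted p = 0.00141).

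Most of the measured genes did not pass the test. In KO 7 of 35 fell and 1 rose at an adjusted p under 0.05, and 27 were not called. At an unadjusted p under 0.05, 11 were lower and 1 was higher. By unadjusted p (limma) Pgam1, at 0.0313, ranked 2796 and Hif1a, at 0.0525, ranked 3435 of the 11585 genes tested. The count of all genes under 0.05, in either direction, lies between those ranks. The shares called that follow are at the adjusted p. Over all 11585 genes tested 13.0% were called, 8.53% lower and 4.45% higher in KO. Of the 35, 22.9% were called. The median log2 difference was -0.07 for the 35 genes and -0.03 for all genes tested. On 10 of the 35 genes the KO and WT arrays did not overlap, 9 of them with KO below, against 20.3% of all genes tested in either direction and 13.5% with KO below. In bulk samples a smaller share of cells with a transcript and less transcript per cell cannot be told apart.

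**Figure D1:**
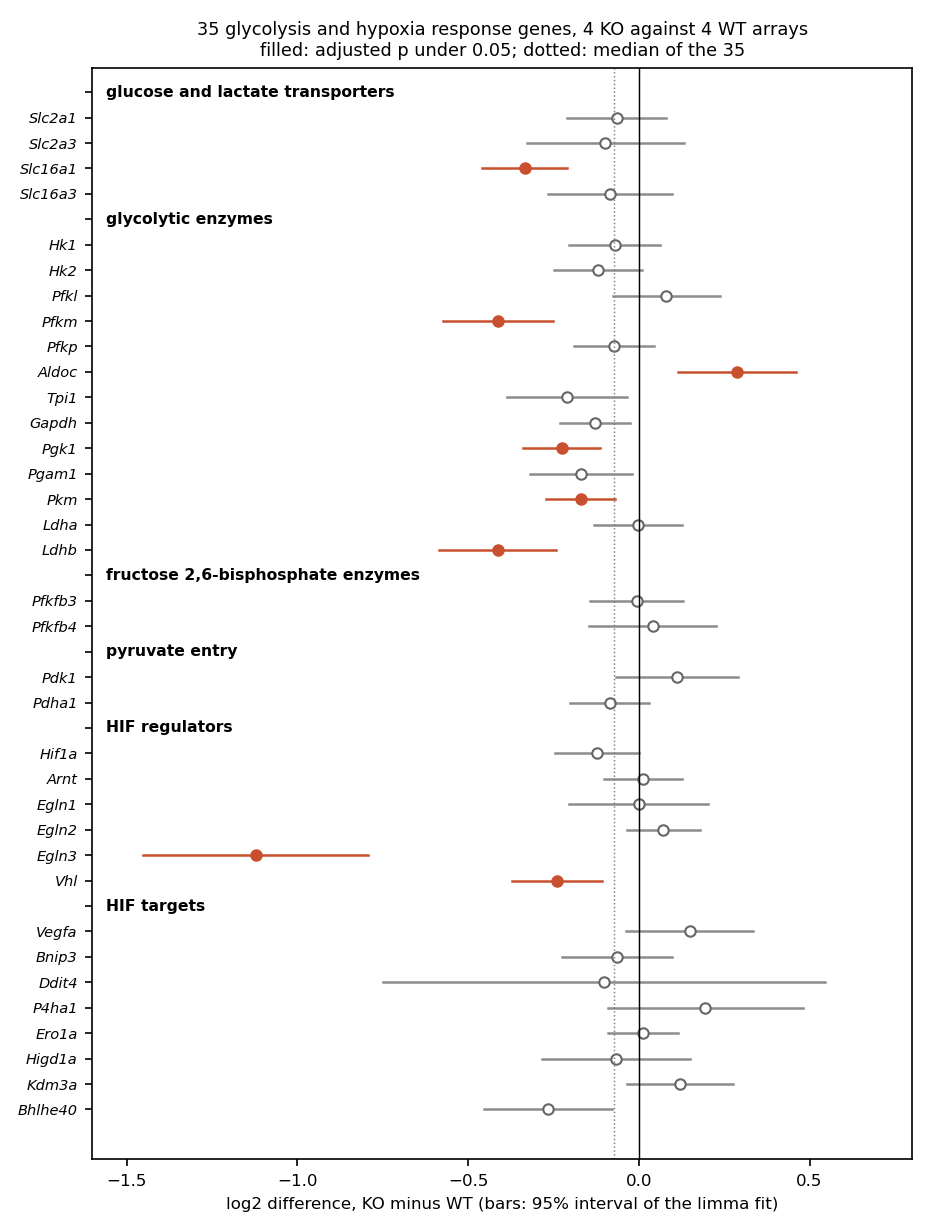
Log2 difference between KO and WT (horizontal axis) for the 35 measured genes, grouped by role, with the 95% interval of the limma fit over 4 KO and 4 WT arrays. Filled points passed the test; Egln3 stands at -1.12, apart from the other genes, whose differences run from -0.41 to 0.29.

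Of the 21 genes of glycolysis 5 fell, namely Slc16a1, Pfkm, Pgk1, Pkm and Ldhb, and 1, Aldoc, rose, against 8.53% and 4.45% of all genes tested. Differences below 0 were found for 17 of the 21 and for 59.1% of all genes tested. The median difference of the 21 was -0.08 log2. The changes were small, between 1.12-fold and 1.33-fold. Genes at the entry of glucose into the cell and at the first phosphorylation were not among those called.

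Of the 4 transporters 1 was called, beside 13.0% of all genes tested. It was Slc16a1, which encodes the monocarboxylate transporter MCT1 that moves lactate and pyruvate. Slc16a1 stood at 9.85, 10.01, 9.93 and 9.89 log2 in WT and at 9.67, 9.58, 9.58 and 9.50 in KO. Each KO array lay under every WT array. The difference was -0.33 ± 0.056 (SE) log2, a 1.26-fold fall (limma, adjusted p = 0.00573), and it stayed called when any single array was left out. Dropping WT replicates 2 and 3 together raised its adjusted p to 0.0757.

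The glucose transporters were not called. Slc2a1, which encodes GLUT1, the glucose carrier that rises when T cells are activated, stood at 9.80, 10.09, 10.02 and 9.98 in WT and at 9.95, 9.92, 9.85 and 9.90 in KO. The groups overlapped, and the difference of -0.06 log2 had a 95% interval from -0.21 to 0.08. Slc2a3, which encodes the high-affinity carrier GLUT3, stood at 8.66, 9.03, 8.89 and 9.16 in WT and at 8.85, 8.85, 8.96 and 8.68 in KO. Its difference was -0.10 with an interval from -0.33 to 0.13. Slc16a3, which encodes the lactate exporter MCT4, differed by -0.08 (interval -0.27 to 0.10).

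The promoters of 4 genes are shown because they carry the core of the hypoxia response element, the site that HIF is known to bind, while their transcripts differed in how they moved. Each is the stretch of 250 bases before the annotated start in RefSeq (build GRCm38.p6), written along the gene's strand. Capitals mark ACGTG or GCGTG on either strand; CACGTG holds ACGTG on both strands at once.
Slc16a1, chr3:104638414-104638663, plus strand: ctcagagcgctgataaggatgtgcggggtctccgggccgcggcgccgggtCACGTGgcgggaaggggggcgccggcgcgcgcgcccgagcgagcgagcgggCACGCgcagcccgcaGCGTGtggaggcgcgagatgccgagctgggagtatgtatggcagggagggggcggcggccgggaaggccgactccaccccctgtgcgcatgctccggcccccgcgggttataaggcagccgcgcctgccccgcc
Pgk1, chrX:106186850-106187099, plus strand: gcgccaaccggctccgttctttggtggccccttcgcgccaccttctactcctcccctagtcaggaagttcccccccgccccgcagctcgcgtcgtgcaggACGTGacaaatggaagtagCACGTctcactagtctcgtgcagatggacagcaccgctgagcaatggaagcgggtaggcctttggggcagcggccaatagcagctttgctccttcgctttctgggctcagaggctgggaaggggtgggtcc
Ldha, chr7:46845554-46845803, plus strand: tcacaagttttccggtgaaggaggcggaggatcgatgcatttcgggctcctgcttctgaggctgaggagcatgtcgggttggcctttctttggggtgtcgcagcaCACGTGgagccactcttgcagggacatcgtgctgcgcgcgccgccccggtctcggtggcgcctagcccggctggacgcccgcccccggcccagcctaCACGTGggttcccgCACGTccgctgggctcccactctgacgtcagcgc
Egln3, chr12:54203875-54204124, minus strand: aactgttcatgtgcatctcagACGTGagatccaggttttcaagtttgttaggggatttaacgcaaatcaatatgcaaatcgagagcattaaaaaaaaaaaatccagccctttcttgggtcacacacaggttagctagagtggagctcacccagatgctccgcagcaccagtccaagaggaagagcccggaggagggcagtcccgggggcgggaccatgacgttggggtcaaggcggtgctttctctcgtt

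In these windows Slc16a1 had 4 such matches, Pgk1 had 2, Ldha had 5 and Egln3 had 1, the last at 229 bases before the start. The transcripts of Slc16a1, Pgk1 and Egln3 fell in KO and that of Ldha was not called. RefSeq windows were matched for 37 of the 40 genes, by symbol, with 54 windows in all. Of these 79.6% held the core, against 55.0% of the windows of all genes tested and 38.6% of all windows. The median GC content was 61.6%, 59.6% and 52.4% in these sets. Among the windows of called genes 10 of 13 held it, and among those of measured genes not called 27 of 33. A match is a run of letters and not a measured binding site.

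At the first step, hexokinase, neither gene was called. Hk2, the inducible hexokinase, stood at 6.14, 6.19, 6.07 and 6.24 in WT and at 5.98, 5.98, 6.06 and 6.14 in KO. These low values overlapped, with a difference of -0.12 log2 (95% interval -0.25 to 0.01). Hk1, the constitutive hexokinase, differed by -0.07 (interval -0.21 to 0.06).

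Of the 3 genes of phosphofructokinase, which commits the sugar to glycolysis, 1 was called, beside 13.0% of all genes tested. Pfkm, which encodes the muscle-type subunit, stood at 8.30, 8.56, 8.34 and 8.42 in WT and at 8.05, 7.87, 7.96 and 8.10 in KO. No KO array reached the lowest WT array. Pfkm fell by 0.41 ± 0.072 (SE) log2, 1.33-fold (limma, adjusted p = 0.00714), and stayed called when any single array was left out. Dropping WT replicates 2 and 3 together gave an adjusted p of 0.0605, and dropping KO replicates 1 and 2 gave 0.0791. Pfkl, the liver-type subunit, differed by 0.08 (95% interval -0.08 to 0.24) and Pfkp, the platelet-type subunit, by -0.07 (interval -0.19 to 0.04). Pfkfb3 and Pfkfb4, whose products set the level of the activator fructose 2,6-bisphosphate, differed by -0.01 and 0.04 and were not called (limma; 0 of these 2 genes also at an unadjusted p under 0.05).

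Among the middle enzymes Aldoc rose and Pgk1 fell. Aldoc, an aldolase best known from the brain, stood at 5.55, 5.47, 5.65 and 5.70 in WT and at 5.88, 6.02, 5.71 and 5.91 in KO. The groups nearly touched, and the WT mean of 5.59 lay next to the intensity filter. The rise of 0.29 ± 0.077 (SE) log2 had an adjusted p of 0.0378 (limma). Omitting WT replicate 4 or KO replicate 3 kept the call, and omitting any of the other 6 arrays ended it, with adjusted p up to 0.0955.

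Pgk1, the phosphoglycerate kinase of the first ATP-forming step, stood at 11.38, 11.41, 11.37 and 11.41 in WT and at 11.21, 11.18, 11.06 and 11.22 in KO. The WT arrays lay within a narrow band, and each KO array lay under it. Pgk1 fell by 0.23 ± 0.051 (SE) log2, 1.17-fold (limma, adjusted p = 0.0199). The call ended without WT replicate 2, at an adjusted p of 0.0527.

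Tpi1, triose phosphate isomerase, Gapdh, the dehydrogenase of the following step, and Pgam1, the phosphoglycerate mutase, were lower in KO without being called. Their differences were -0.21, -0.13 and -0.17 log2, with adjusted p of 0.111, 0.0942 and 0.130 (limma). Gapdh lay lower in each KO array, at 12.07 to 12.16 against 12.18 to 12.27 in WT. It has 3 probe sets with its symbol alone and 8 shared with pseudogenes or related loci, so its value may include signal of near-identical copies. The next brightest Gapdh probe set differed by -0.13, the next brightest of Pgam1 by -0.15.

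At the end of the pathway Pkm and Ldhb fell while Ldha was not called. Pkm, pyruvate kinase of muscle type, stood at 11.65, 11.61, 11.62 and 11.63 in WT and at 11.46, 11.41, 11.44 and 11.53 in KO, with no overlap. Its fall of 0.17 ± 0.045 (SE) log2, 1.12-fold, had an adjusted p of 0.0378 (limma). Omitting KO replicate 4 kept the call, and each of the other 7 single omissions ended it, with adjusted p up to 0.0910.

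Ldhb, the lactate dehydrogenase subunit known to favour lactate as a substrate, stood at 9.61, 9.90, 9.80 and 9.92 in WT and at 9.47, 9.29, 9.36 and 9.46 in KO. The groups did not overlap. Ldhb fell by 0.41 ± 0.076 (SE) log2, 1.33-fold (limma, adjusted p = 0.00938), and stayed called when any single array was left out. Dropping KO replicates 1 and 2 together gave an adjusted p of 0.0865, and dropping WT replicates 2 and 3 gave 0.0986. Ldha, the subunit known to favour pyruvate and a classical HIF target, stood at 9.29, 9.32, 9.43 and 9.26 in WT and at 9.37, 9.38, 9.33 and 9.21 in KO. The groups overlapped, and the difference of -0.0020 log2 had a 95% interval from -0.13 to 0.13.

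Neither of the 2 genes of pyruvate entry into the citric acid cycle was called by limma, and 0 passed at an unadjusted p under 0.05. Pdk1, the kinase that switches off pyruvate dehydrogenase and another HIF target, stood at 9.38, 9.28, 9.22 and 8.99 in WT and at 9.35, 9.29, 9.40 and 9.26 in KO. The difference was 0.11 log2 (95% interval -0.07 to 0.29). Pdha1, a subunit of that dehydrogenase, differed by -0.08 (interval -0.20 to 0.03).

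**Figure D2:**
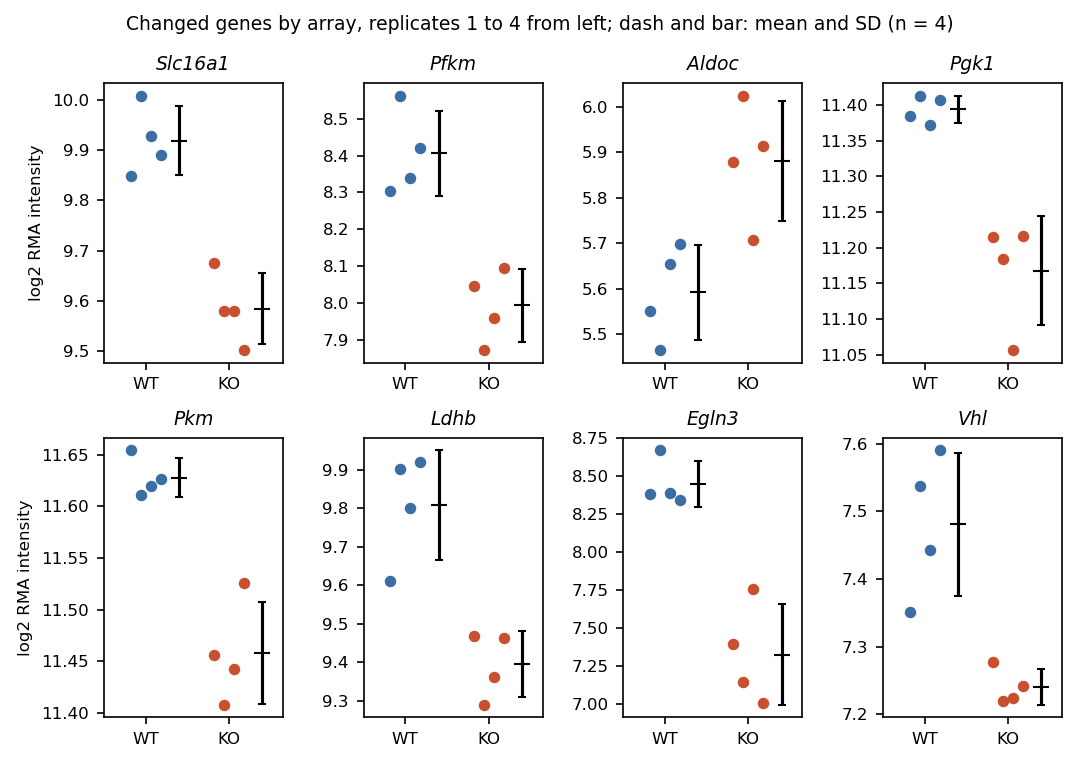
Log2 RMA intensity (vertical axis, scaled per gene) of the 8 called genes in each of the 4 WT and 4 KO arrays, with mean and SD. The 8 genes were selected by the test on these same arrays. In each the genotypes do not overlap, which held for 20.3% of all genes tested. The smallest gap is that of Aldoc, at 5.70 in the highest WT and 5.71 in the lowest KO array.

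A difference in change between genes of 1 step was tested, on pairs chosen after the data were seen, from the log2 ratio of the genes in the same array, over 9 pairs, with a two-sided exact permutation test of 4 against 4 arrays, whose smallest possible p is 0.0286. The ratio of Ldhb to Ldha was lower in KO by 0.41 ± 0.11 (SE) log2, that of Pfkm to Pfkl by 0.49 ± 0.055 and that of Pfkm to Pfkp by 0.34 ± 0.065. In each of these 3 pairs the arrays did not overlap and p took that smallest value, 0.0514 after adjustment over the 9 pairs. None passes 0.05 after adjustment, and with p at its smallest value the size of the shifts cannot alter that. As the pairs were chosen after the data were seen, these p-values are descriptive only. The ratio of Slc16a1 to Slc16a3 differed by -0.25 with overlap (exact permutation p = 0.0571, adjusted 0.0857). The ratios of Hk2 to Hk1, Slc2a3 to Slc2a1 and Pfkfb3 to Pfkfb4 differed by -0.05, -0.03 and -0.05 (exact permutation p = 0.200, 0.714 and 0.657).

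**Figure D3:**
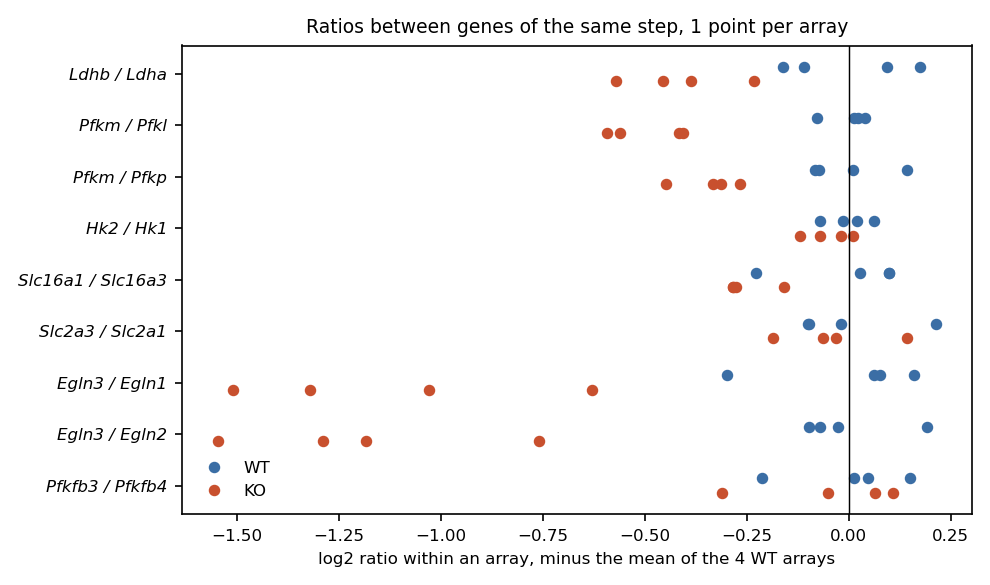
Log2 ratio of paired genes in each array, relative to the mean of the 4 WT arrays (horizontal axis), 1 point per array. The KO points of Ldhb to Ldha, of both Pfkm ratios and of both Egln3 ratios lie left of all WT points, with mean shifts from -0.34 to -1.19.

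Among the 6 regulators of HIF Egln3 and Vhl fell and none rose. They were the only genes called of the 14 of the hypoxia response, 14.3% against 13.0% of all genes tested. The median difference of the 14 was -0.03 log2, the same as that of all genes tested. Egln3, an oxygen-dependent prolyl hydroxylase that acts on HIF alpha and is itself induced by HIF, had the largest change of the 35 genes. It stood at 8.39, 8.67, 8.39 and 8.34 in WT and at 7.39, 7.15, 7.76 and 7.004 in KO. The KO arrays were spread more widely than the WT arrays and lay under all of them. Egln3 fell by 1.12 ± 0.15 (SE) log2, 2.18-fold (limma, adjusted p = 0.00186). When single arrays were left out the difference ran from -1.27 to -1.01 and stayed called. It also stayed called with either pair of arrays dropped, KO replicates 1 and 2 (adjusted p = 0.0407) or WT replicates 2 and 3 (0.0329).

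The other prolyl hydroxylases were not called. Egln1, which encodes PHD2, the main hydroxylase of HIF1A in most cells, stood at 8.90 to 9.31 in WT and at 9.06 to 9.18 in KO and differed by -0.0005 log2 (95% interval -0.20 to 0.20). Egln2, which encodes PHD1, differed by 0.07 (interval -0.04 to 0.18). The ratio of Egln3 to Egln1 was lower in KO by 1.12 ± 0.22 (SE) log2 and that to Egln2 by 1.19 ± 0.18, with no overlap between the genotypes (exact permutation p = 0.0286 for each, 0.0514 adjusted over the 9 pairs). These pairs too were chosen after the data were seen, and that p is the smallest possible.

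Vhl, the substrate receptor of the ligase that degrades HIF alpha, stood at 7.35, 7.54, 7.44 and 7.59 in WT and at 7.28, 7.22, 7.22 and 7.24 in KO. The KO arrays lay close together under the lowest WT array. Vhl fell by 0.24 ± 0.059 (SE) log2, 1.18-fold (limma, adjusted p = 0.0278). Omitting WT replicate 1 kept the call, and each of the other 7 single omissions ended it, with adjusted p up to 0.0750.

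Hif1a, the alpha subunit itself, stood at 9.75, 9.87, 9.82 and 9.92 in WT and at 9.74, 9.63, 9.77 and 9.73 in KO. WT replicate 1 lay within the KO range, and the difference of -0.12 log2 had a 95% interval from -0.25 to 0.0016 (limma, adjusted p = 0.177). Arnt, its partner, differed by 0.01 (interval -0.10 to 0.13). HIF1A is known to be controlled mainly at the protein, which these arrays do not measure.

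Of the 8 measured HIF targets outside glycolysis none was called by limma, and at an unadjusted p under 0.05 only Bhlhe40 was lower and 0 were higher. Their median difference was -0.03 log2, the same as that of all genes tested. Bhlhe40, a transcriptional repressor that is also induced in activated T cells, stood at 6.93, 6.75, 6.91 and 6.75 in WT and at 6.38, 6.66, 6.73 and 6.50 in KO. The groups were separated narrowly, with a difference of -0.27 (adjusted p = 0.0669), which passed the threshold without KO replicate 3 (0.0485), after a second quantile normalization and with each array centred on its median.

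Ddit4, whose product restrains mTORC1 and which stress and glucocorticoids also induce, varied most. It stood at 11.11, 10.48, 11.27 and 10.65 in WT and at 11.35, 11.29, 10.31 and 10.16 in KO. KO replicates 1 and 2 lay high and KO replicates 3 and 4 low, so the difference of -0.10 log2 had a 95% interval from -0.75 to 0.55. On the same arrays Hspa1a, a heat-shock gene that rises with handling stress, stood at 9.94 and 9.27 in KO replicates 1 and 2. It stood at 4.27 and 7.71 in KO replicates 3 and 4, and at 4.84, 5.65, 8.00 and 6.04 in WT. Ddit4 was called in 0 of 22 other settings, among them that with the mean of Hspa1a and Hspa1b as covariate. That fit gives the genotype difference only, and the part of Hspa1a in the values of Ddit4 was not tested.

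P4ha1, a collagen prolyl hydroxylase, and Kdm3a, a histone demethylase, differed by 0.19 (95% interval -0.09 to 0.48) and 0.12 (interval -0.04 to 0.28). Higd1a, a mitochondrial protein, and Bnip3, a mitophagy receptor, differed by -0.07 and -0.06, and Ero1a, an oxidase of the endoplasmic reticulum, by 0.01. Vegfa, the angiogenic growth factor, stood between 5.34 and 5.76 on all arrays, at the intensity filter, and differed by 0.15 (interval -0.04 to 0.33). Its WT mean of 5.50 lay below the filter of 5.56 and its KO mean of 5.65 above it. Vegfa was thus tested only because of its KO level. Without WT replicate 3 Vegfa was called higher (limma, adjusted p = 0.0472), a call that is not independent of the filter.

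**Figure D4:**
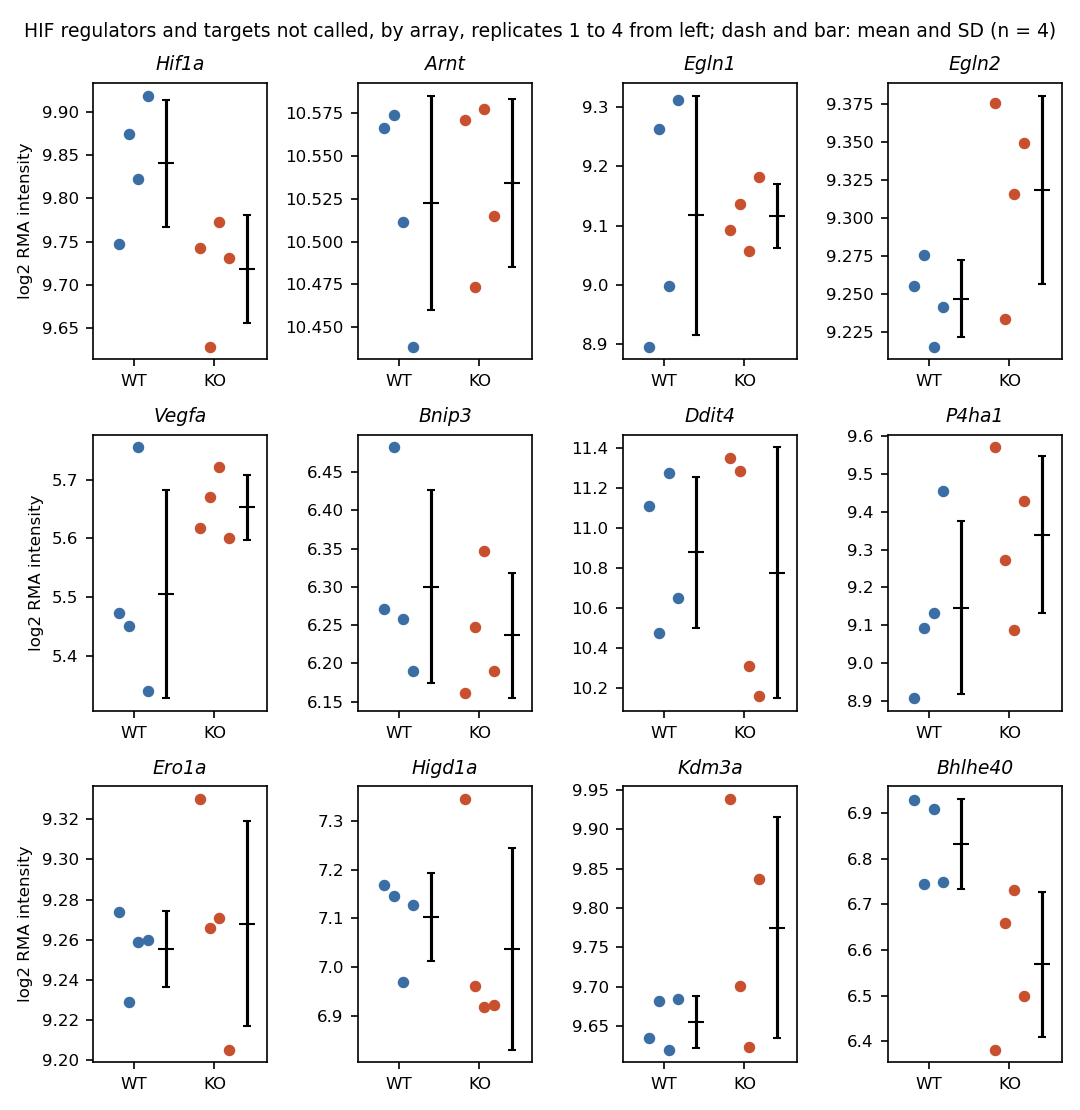
Log2 RMA intensity (vertical axis, scaled per gene) of the 12 HIF regulators and targets that were not called, in 4 WT and 4 KO arrays, with mean and SD. The genotypes overlap in each panel other than that of Bhlhe40, and Ddit4 has the widest range, from 10.16 to 11.35.

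Further genes of these pathways, none of them among the 35, were read from separate lists, beside 8.53% lower and 4.45% higher among all genes tested. Of 20 other genes of glycolysis and pyruvate use 6 fell and 1 rose, with a median of -0.10 log2. Bpgm, which makes 2,3-bisphosphoglycerate, fell 1.27-fold (log2 -0.35 ± 0.057 SE) and Pdk3, a kinase of pyruvate dehydrogenase, 1.21-fold. Mpc1, of the mitochondrial pyruvate carrier, and Ldhd, a D-lactate dehydrogenase, fell 1.26-fold and 1.18-fold (limma, adjusted p = 0.0318 and 0.0321). Omitting any of WT replicates 1, 2 and 3 and KO replicates 1 and 3 ended the call of Mpc1. For Ldhd the same held of WT replicates 2, 3 and 4 and KO replicates 1 and 2.

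A separate list of 26 other genes of the HIF pathway and its targets held 2 that rose and 6 that fell, with a median of -0.08 log2. Epas1, which encodes the alpha subunit HIF-2 alpha, rose 1.53-fold, from 6.40 ± 0.063 to 7.01 ± 0.19 log2 (SD, n = 4 per genotype; limma, adjusted p = 0.00289). Cul2, the scaffold of the VHL ligase, fell 1.18-fold (adjusted p = 0.0128, limma). Pdgfb, a growth factor subunit, and Rora, a nuclear receptor, fell 1.52-fold and 1.42-fold. These 4 calls stayed when any single array was left out. Hif3a, Ndrg1, Fam162a and Wsb1 of this list were named after their values were seen. Hif3a, which encodes another alpha subunit, fell 1.39-fold (limma, adjusted p = 0.0454) with overlapping groups. Ndrg1, a stress-responsive HIF target, rose 1.23-fold (limma, adjusted p = 0.0145). Fam162a and Wsb1 fell 1.19-fold each (limma, adjusted p = 0.0193 and 0.0196), with each KO array below every WT array. The call of Ndrg1 held in all 8 single omissions, and that of Hif3a held only with WT replicate 4 or KO replicate 2 omitted.

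Of 5 tested pentose phosphate genes Taldo1, transaldolase, fell 1.22-fold (limma, adjusted p = 0.0104) and 0 rose. Of 13 genes of the citric acid cycle Mdh1, the cytosolic malate dehydrogenase, fell 1.18-fold (limma, adjusted p = 0.0403). Of 8 single omissions that of WT replicate 1 alone kept this call. Mdh2 and Idh3a stood at -0.14 and -0.23 without being called. Of 15 regulators of glucose uptake and glycolytic transcription 0 were called by limma, with 3 higher and 0 lower at an unadjusted p under 0.05. These were Txnip, a brake on glucose uptake, at 0.40 log2 (adjusted p = 0.0594), Mlxip at 0.17 and Prkaa1, the catalytic subunit of AMP-activated kinase, at 0.16. Akt1, a kinase that promotes glucose uptake, differed by -0.11 (adjusted p = 0.201, limma).

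Of 13 measured proliferation markers 6 fell and 0 rose, against 8.53% and 4.45% of all genes tested, and all 13 differences were below 0. Their mean level ran from 8.55 to 8.98 log2 in WT and from 8.27 to 8.54 in KO. Markers of double-positive and CD8 cells were lower in 7 of 8, against 59.1% of all genes tested. Cd8a alone was called, lower in KO, which makes 12.5% of the list against 13.0% of all genes tested. In 4 of the 8 each KO array lay below every WT array, against 13.5% of all genes tested. The mean level of the list was 7.86 to 8.11 in WT and 7.54 to 7.81 in KO, without overlap. With the proliferation mean of each array as a covariate, which itself does not overlap between the genotypes, 29 genes of the whole table were called higher and 7 lower, none of them among the 35. Egln3 then stood at -1.09 ± 0.30 (SE) log2, Ldhb at -0.43 ± 0.16, Slc16a1 at -0.33 ± 0.11, Vhl at -0.33 ± 0.12 and Pgk1 at -0.21 ± 0.10. Pfkm stood at -0.29, Pkm at -0.12 and Aldoc at 0.13. The part of the CD8 markers in these results was not tested.

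Of 12 markers of dissociation and heat shock 10 differences were above 0, while 59.1% of all genes tested lay below 0. Of the 12, 1 gene was called, 8.33% against 13.0% of all genes tested. It was Jun, an immediate-early gene, which rose by 0.91 log2 (limma, adjusted p = 0.0288). That call ended with WT replicate 1 or 3 or any of KO replicates 1, 2 and 4 omitted. The mean level of the list ran from 7.78 to 8.48 in WT and stood at 9.06, 8.85, 7.70 and 8.75 in KO, so KO replicate 3 lay under all WT arrays and the others above them. With the mean of the heat-shock genes Hspa1a and Hspa1b in each array as the covariate, 4 of the 21 glycolysis genes and 1 of the 14 hypoxia genes were still called lower and 0 higher.

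**Figure D5:**
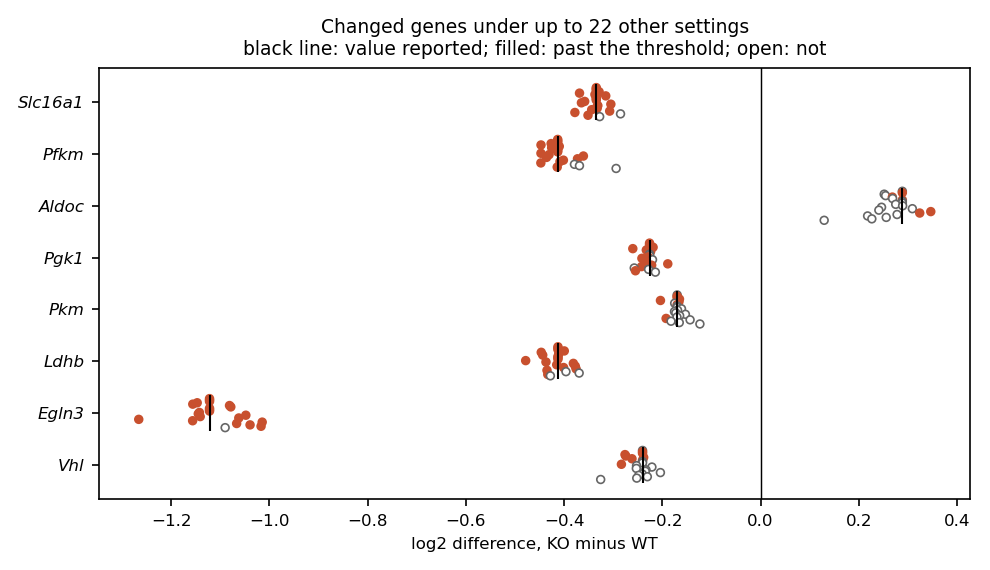
Log2 difference between KO and WT (horizontal axis) of the 8 called genes under up to 22 other settings, filled where the gene passed the threshold. Every point keeps the sign of the reported value; Egln3 was called in 21 of 22 settings, Slc16a1 in 20, Pfkm and Ldhb in 19, Pgk1 in 16, Vhl in 8, Pkm in 7 and Aldoc in 5 of 21.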

How the data were processed

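The submitters' processing notes name RMA and Affymetrix Expression Console 1.1. The authors deposited log2 intensities, 1 value for each probe set and array of the Mouse Gene 2.0 ST design. RMA subtracts background, quantile-normalizes the arrays and summarises probes by median polish. Nanogram amounts of RNA were amplified before labelling, per the labels' protocols, which with background can compress differences of weak genes. For genome build, annotation release and scan batch, nothing was given in the sources used here.

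Probe sets with 1 symbol in a platform annotation, which can be old, stood for 22180 genes. The brightest per gene was kept, and genes whose mean reached 5.56, the median over probe sets, were tested, 11585 in all. The genotypes were compared in R 4.3.3 with limma 3.58.1 (lmFit and eBayes, two-sided, no covariate), with Benjamini-Hochberg adjustment over all genes tested and a threshold of 0.05. Differences are KO minus WT in log2. The fit was tested on simulated data. The number of arrays limits the precision.

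Members and lists were chosen with earlier results of these data known, so list counts stand beside the counts over all genes and no list was tested. All 40 genes were accounted for, with values per array for called genes and for Hif1a, Vhl, Slc2a1, Slc2a3, Hk2, Ldha, Pgk1 and Pdk1. Of each other list up to 4 genes were named, called ones first, beside those said to be named after their values were seen. Replicates are numbered in order of deposit and pair no samples. Alternatives covered the filter, the probe set per gene, the scaling, array weights, the title number or a heat-shock mean as a covariate, the variance prior, the threshold and leaving out arrays. The proliferation covariate was added after the data were seen, as were the gene pairs and Ddit4, Bhlhe40 and Gapdh array values.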

Additional observations from a re-analysis of the deposited data

Results flagged for a closer look

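Among 70 groups of 4 arrays examined for the 35 genes, 3 held an array far from the others, where chance flags about 1 in 20 groups. In WT, Egln3 stood at 8.67 in replicate 2 against 8.34 to 8.39 in the others; without that array the KO arrays still lay below. In WT, Pfkfb3 stood at 7.38 in replicate 3 against 7.46 to 7.47. In KO, Higd1a stood at 7.35 in replicate 1 against 6.92 to 6.96.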

How the results depend on the processing

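In 22 alternatives no called gene among the 35 changed direction. Of 840 alternative values of single genes and gene pairs, 773 kept their call, stayed uncalled or stayed within the replicate spread. Most of the 840 belong to genes that were not called and to gene pairs. The 60 values that lost a call all belong to the called genes among the 35. Counts moved more. In the following, counts of glycolysis genes are of 21 and those of hypoxia genes of 14 (limma). Over all genes the reported counts are 515 higher and 988 lower in KO; among glycolysis genes 1 higher and 5 lower, and among hypoxia genes 0 higher and 2 lower. At an adjusted p under 0.01 there were 206 higher and 240 lower genes, with 0 higher and 3 lower of glycolysis and 1 lower of hypoxia. With unnamed probe sets tested too, 506 were lower, with 0 higher and 3 lower of glycolysis and 1 lower of hypoxia; 490 were higher, so that the split between directions was near even. With no intensity filter 556 were lower, with 0 higher of glycolysis and 1 lower of hypoxia. With each array centred on its median (383 higher, 1321 lower), after a second quantile normalization, at a mean log2 of at least 6 or with the title number as a covariate the count of glycolysis genes higher in KO was 0; Aldoc lies below that stricter filter. With a covariate made of Hspa1a and Hspa1b 524 were lower, 0 of glycolysis higher and 1 of hypoxia lower. Without KO replicates 1 and 2 there were 136 higher and 122 lower, with 0 higher and 1 lower of glycolysis and 1 lower of hypoxia. Without WT replicates 2 and 3 there were 150 higher and 145 lower, with 0 of glycolysis in either direction (1 higher and 5 lower at an unadjusted p under 0.05) and 1 lower of hypoxia; both leave fewer arrays. With the proliferation mean as a covariate 29 were higher and 7 lower, with 0 of glycolysis (1 higher and 2 lower at an unadjusted p under 0.05) and 0 of hypoxia (0 and 2). Other causes of these shifts were not tested.

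When single arrays were left out, 302 to 496 genes were higher and 493 to 945 lower, 0 to 1 glycolysis genes higher and 3 to 5 lower, and 0 to 1 hypoxia genes higher and 1 to 2 lower. Counts moved by over 1.5 times without KO replicate 1 or WT replicate 3 for higher genes, and for lower genes with any of KO replicates 1 to 3 and WT replicates 2 and 3 omitted. Among glycolysis genes the count of 3 came without WT replicate 2, and among hypoxia genes the count of 1 lower came with any array omitted other than KO replicate 3 and WT replicate 1, and that of 1 higher without WT replicate 3 (Vegfa). No paired analysis was possible because the labels give no replicate numbers that the genotypes share. Low intensity limits Aldoc and Vegfa, whose levels lie near the filter. Vegfa passed the filter only because of its KO level.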
